A study of Homo sapiens with 4 samples.

Results

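The 34 genes described here carry glucose from the cell surface to lactate, export the lactate, hold pyruvate back from the mitochondria, or build and break glycogen. They were chosen by symbol, as rows on the numbered chromosomes or X of a table of 62077 rows, and all 34 were found on 1 such row each. The table holds the transcriptome of FaDu cells, an established human line from a squamous carcinoma of the hypopharynx. Cells carried a lentiviral scrambled control or a lentiviral short hairpin knockdown of TET1 (TET1-si). They stayed in normoxia or spent 19 h in 1% O2, 5% CO2 and 94% N2. The groups were N-scr (normoxia, scrambled), H-scr (hypoxia, scrambled), N-si (normoxia, TET1-si) and H-si (hypoxia, TET1-si), with 1 library each. Both scrambled groups were infected cells too, every group came from the same line, and a single hairpin stood for the knockdown. A difference between hairpin, infection and culture therefore cannot be told apart from a difference in TET1. The comparisons asked how this pathway responded to hypoxia and how far that response differed when TET1, a dioxygenase that oxidises 5-methylcytosine in DNA, was knocked down.

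Glycolysis splits glucose into pyruvate in the cytosol and yields ATP without oxygen. Cells short of oxygen reduce the pyruvate to lactate, which regenerates NAD+ for the pathway, and export the lactate with a proton. Hypoxia-inducible factors (HIFs), transcription factors that are stabilised when oxygen falls, bind a short core motif near many genes of this pathway. Squamous carcinomas of the head and neck are known for high glucose uptake, and some tumour cells store glycogen in hypoxia.

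Values are FPKM, fragment numbers divided by exon length and library size, so that levels are per length and can be compared between genes. Coordinates are hg19, as in the deposited table. The recovered depths lay between 22500000 and 24600000 fragments a library. Each group holds 1 library, so the differences could not be set against replicates and no test was made. Changes are differences of log2(FPKM + 0.1), a scale that understates the change of low genes, and a change of at least 1 on it is called 2-fold. Ratios given as folds are of FPKM with no pseudocount. Counting intervals (95%, exact Clopper-Pearson) rest on approximate reads and cover counting error only. TET1 was 0.129 and 0.331 FPKM in N-scr and H-scr, and 0.0493 and 0.122 in N-si and H-si, low in every library and 2.63-fold lower after TET1-si in normoxia and 2.71-fold lower in hypoxia. These levels rested on about 28, 77, 11 and 26 reads in that order. The counting intervals of the log2 ratio were -2.60 to -0.39 in normoxia and -2.14 to -0.78 in hypoxia. On the log2(FPKM + 0.1) scale the changes were -0.62 and -0.96, short of 2-fold. All 11 squamous and epithelial markers checked were above a mean of 1 FPKM. After TET1-si 6 of the 11 were at least 2-fold lower in normoxia and 5 in hypoxia, and 0 were at least 2-fold higher in either. KRT14 was 42.1 FPKM in N-scr against 99.9 in H-scr, and 0.487 in N-si against 1.41 in H-si, and KRT6A was 67.7 and 109 FPKM in N-scr and H-scr, and 0.394 and 0.357 in N-si and H-si. Among the abundant keratins KRT5 differed after TET1-si by -2.35 in normoxia and -1.48 in hypoxia, KRT8 by -1.85 and -2.07 and KRT18 by -1.87 and -2.09. The abundant KRT17 differed by less, at -0.98 and -0.62, and KRT19 was -0.77 in normoxia and 0.22 in hypoxia. CDH1 (0.57 and 0.45) and EPCAM (0.41 and 0.68) were higher by less than 2-fold, and TP63 was -0.27 and -0.04. Of the markers of other cells, 1 of 6 fibroblast genes (COL1A1), 1 of 5 leukocyte genes (CD68) and 2 of 3 endothelial genes (CDH5 and VWF) passed that mean. The summed endothelial markers were 8.93, 17.8, 22.2 and 48.4 FPKM in N-scr, H-scr, N-si and H-si, and those of fibroblasts were 5.30, 28.7, 14.1 and 37.2 FPKM in the same order. PTPRC, CD3E, COL1A2, LUM, DCN and KDR were at or below 0.1 FPKM in all 4 libraries. Of the 11 epithelial markers 1 (KRT14) was at least 2-fold higher in H-scr than in N-scr and 5 in H-si than in N-si. COL1A1 and VWF passed 2-fold upwards with hypoxia in either state and with TET1-si in normoxia, and CDH5 did with TET1-si in either oxygen state and with hypoxia in TET1-si cells. The part of these markers in the results was not tested.

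The RNA came from bulk cultures, in which fewer cells with a transcript and less of it per cell cannot be told apart. Most of these genes stood higher in hypoxia than in normoxia in scrambled cells, and fewer did so, by less, in TET1-si cells. Of the 34 genes, 33 had a mean of at least 1 FPKM and PDK4 did not. Hypoxia was at least 2-fold higher for 10 of the 33 in scrambled cells and at least 2-fold lower for 0, where 12.9% of all 15057 genes above the minimum were higher and 4.53% lower. In TET1-si cells 5 of the 33 were at least 2-fold higher and 0 lower, beside 12.5% higher and 8.66% lower among all genes. At any size, 28 of 33 were higher in hypoxia in scrambled cells (52.9% of all genes) and 22 of 33 in TET1-si cells (51.5%). Their median change was 0.72 without the knockdown and 0.21 with it, against 0.05 and 0.03 for all genes. The 5 genes at least 2-fold higher in both were SLC2A1, SLC2A3, PFKFB4, ALDOC and PDK1, and 6.73% of all genes were. SLC2A3 reached the minimum through the hypoxia libraries, where it is high, so its place in these counts follows in part from the filter. ENO2, SLC16A3, PDK2, GYS1 and PPP1R3C were so in scrambled cells and below 2-fold in TET1-si cells, and 0 genes were so in TET1-si cells alone. PPP1R3C fell short of 2-fold in scrambled cells with a pseudocount of 1 (0.66), and PDK2 (0.95) and PPP1R3C (0.96) did with median-of-ratios scaling. PPP1R3C had also reached the minimum through H-scr, where it is high, so its place in these counts follows in part from the filter.

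The levels spanned from 0.0226 FPKM (PDK4) to 3204 FPKM (GAPDH) in N-scr. Of the 34 genes, 31 were at 1 FPKM or more in every library, and 11 were at 100 or more in every library. Those 11 were SLC2A1, GPI, ALDOA, TPI1, GAPDH, PGK1, PGAM1, ENO1, PKM, LDHA and LDHB, all of them cytosolic enzymes apart from SLC2A1. Among these 11, SLC2A1 alone was at least 2-fold higher in H-scr than in N-scr.

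**Figure D1:**
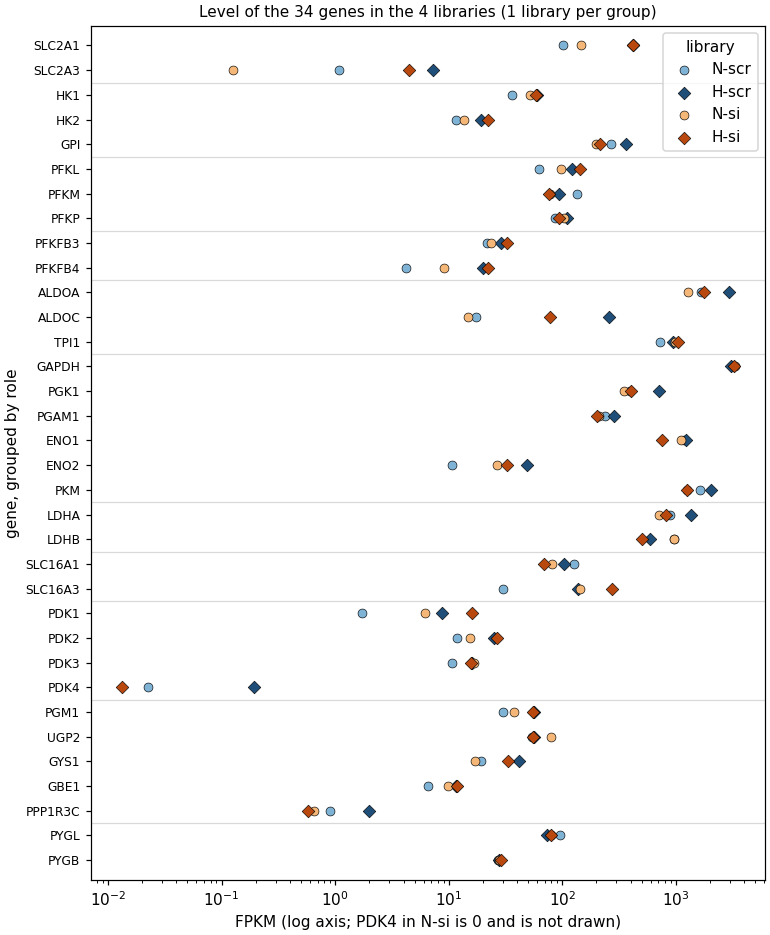
FPKM of the 34 genes on a log axis, 1 point per library (circles, normoxia; diamonds, hypoxia; blue, scrambled; orange, TET1-si), in the order of their roles, with 1 library per group and no error bars. ALDOC, PDK1, SLC16A3 and SLC2A3 are spread widely, while GAPDH stays between 3072 and 3302 FPKM.

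The promoters of the genes with a 2-fold hypoxia response in each knockdown state are shown here, with that of LDHA, which with ALDOC held the most matches to the HIF core motif. RefSeq promoters (GRCh38.p14) were matched for 32 of the 34 genes, all but SLC2A3 and SLC16A1, with 1 annotated start per gene. The 250 bases before that start were searched for ACGTG and GCGTG on both strands. Other starts of a gene were not searched, so 0 matches holds for that window only. The palindrome CACGTG counts as a match on each strand. Matches are in capitals, and each sequence runs 5′ to 3′ along its gene. Only the longest stretch of the window outside exons of the gene is printed. The PFKFB4 and ALDOC stretches and most of that of LDHA lie inside the deposited spans of these genes, not upstream of them. On hg19 the same letters stand at chr1:43424565-43424789 (minus strand), chr3:48594357-48594415 (minus), chr17:26903967-26904163 (minus), chr2:173419851-173420100 (plus) and chr11:18415860-18416106 (plus).
SLC2A1: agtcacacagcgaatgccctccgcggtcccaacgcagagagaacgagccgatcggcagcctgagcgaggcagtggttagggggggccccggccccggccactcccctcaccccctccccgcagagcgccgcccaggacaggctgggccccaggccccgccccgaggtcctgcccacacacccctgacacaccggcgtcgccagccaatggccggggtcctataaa
PFKFB4: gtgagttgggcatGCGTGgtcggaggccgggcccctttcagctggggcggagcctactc
ALDOC: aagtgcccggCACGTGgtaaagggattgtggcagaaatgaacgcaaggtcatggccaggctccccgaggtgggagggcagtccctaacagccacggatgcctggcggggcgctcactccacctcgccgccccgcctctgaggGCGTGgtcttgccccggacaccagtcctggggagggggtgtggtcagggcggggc
PDK1: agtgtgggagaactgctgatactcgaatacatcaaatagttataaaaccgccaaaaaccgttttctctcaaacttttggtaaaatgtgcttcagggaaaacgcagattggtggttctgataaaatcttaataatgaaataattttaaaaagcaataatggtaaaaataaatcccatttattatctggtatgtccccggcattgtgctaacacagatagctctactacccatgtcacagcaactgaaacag
LDHA: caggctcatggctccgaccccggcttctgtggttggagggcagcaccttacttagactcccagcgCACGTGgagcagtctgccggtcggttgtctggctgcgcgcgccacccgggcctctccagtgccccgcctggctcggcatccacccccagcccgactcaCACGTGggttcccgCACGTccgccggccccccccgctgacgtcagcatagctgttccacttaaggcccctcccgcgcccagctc
In the whole window SLC2A1 and PDK1 held 0 matches, PFKFB4 held 1, ALDOC held 5 and LDHA held 5, which stand at 3 places in LDHA. The last 53 bases before the ALDOC start, not shown, held 2 of its 5. Over the 32 genes, 12 promoters (37.5%) held ACGTG, where 18.5% of all 35116 promoters and 22.3% of the 13417 promoters of genes above the minimum did. GCGTG was in 12 (37.5%), beside 32.2% and 43.7%, and 18 (56.3%) held either motif, beside 43.2% and 55.3%. A match is a description of letters and was not tested as a binding site.

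Glucose enters through facilitative transporters, of which SLC2A1 (GLUT1) is the widespread form and SLC2A3 (GLUT3) a form of high affinity. SLC2A1 (ENSG00000117394, chr1:43391519-43424530, minus strand) was 101 FPKM in N-scr against 418 in H-scr, and 145 in N-si against 415 in H-si. Its level was 4.12-fold higher in H-scr than in N-scr and 2.86-fold higher in H-si than in N-si, and both hypoxia libraries stood level, with a TET1-si change of -0.01 and a counting interval that covers 0. The smaller fold in TET1-si cells went with a higher level in N-si. SLC2A3 (ENSG00000059804, chr12:8071826-8088871, minus strand) was far lower, at 1.07 and 7.24 FPKM in N-scr and H-scr, and 0.126 and 4.47 in N-si and H-si. It rested on about 89, 643, 11 and 363 reads in that order, and the log2 ratio of its hypoxia response had counting intervals of 2.43 to 3.09 in scrambled and 4.32 to 6.19 in TET1-si cells. SLC2A3 was the only one of the 33 whose hypoxia response was larger in TET1-si cells by at least 1, at 1.69 on the log2(FPKM + 0.1) scale, and its N-si level was the lowest of the 4. With a pseudocount of 1 that difference was 0.29, short of 1. The pseudogene SLC2A3P1 was 0.694 FPKM in N-scr against 3.44 in H-scr, and 0.783 in N-si against 1.40 in H-si, above SLC2A3 itself in N-si, so reads of the 2 rows may have been split. NECAP1, which overlaps SLC2A3 on the other strand, lay between 22.1 and 28.3 FPKM. That is above SLC2A3 in every library, and reads where both genes overlap may not be told apart.

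Hexokinases trap glucose as glucose 6-phosphate, which GPI turns into fructose 6-phosphate. HK1 was 36.3 and 59.9 FPKM in N-scr and H-scr, and 52.3 and 58.9 in N-si and H-si. HK2, the more inducible isozyme, was 11.6 FPKM in N-scr against 19.4 in H-scr, and 13.5 in N-si against 22.2 in H-si, and its hypoxia change was 0.74 without and 0.71 with the knockdown. The HK2 response differed between knockdown states by -0.03, which upper-quartile scaling turned to 0.04, while that of HK1 differed by -0.55 with both hypoxia libraries near the same level. GPI was 269 and 366 FPKM in N-scr and H-scr, and 199.7 and 215 in N-si and H-si, lower in both TET1-si libraries than in either scrambled library.

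Phosphofructokinase commits the sugar to glycolysis, and its 3 subunits did not move together. PFKL was 62.7 FPKM in N-scr against 122 in H-scr, and 97.8 in N-si against 144 in H-si, higher in hypoxia in both states by 0.97 and 0.56. PFKM was 135 and 94.3 FPKM in N-scr and H-scr, and 78.4 and 75.9 in N-si and H-si, N-scr being the highest library, and its hypoxia change was -0.51 in scrambled and -0.05 in TET1-si cells. PFKP was 86.6 FPKM in N-scr against 109.9 in H-scr, and 104 in N-si against 93.1 in H-si, a range in which hypoxia was higher in scrambled cells and lower in TET1-si cells. The summed FPKM of the 3 was 284 and 327 FPKM in N-scr and H-scr, and 279.9 and 313 in N-si and H-si.

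PFKFB3 and PFKFB4 make and degrade fructose 2,6-bisphosphate, the strongest activator of phosphofructokinase. PFKFB3 was 21.7 FPKM in N-scr against 28.8 in H-scr, and 23.5 in N-si against 32.3 in H-si, a change of 0.41 and 0.46 in hypoxia. PFKFB4 (ENSG00000114268, chr3:48555117-48599448, minus strand) was 4.19 and 20.1 FPKM in N-scr and H-scr, and 9.17 and 22.4 in N-si and H-si, with a hypoxia response of 4.80-fold without and 2.44-fold with TET1-si. As with SLC2A1, the hypoxia libraries stood close together and N-si stood above N-scr, by 2.19-fold. UCN2 overlaps PFKFB4 on the same strand and was 2.85 FPKM in N-scr against 9.16 in H-scr, and 4.95 in N-si against 22.4 in H-si, so their reads cannot be fully told apart.

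Aldolase splits fructose 1,6-bisphosphate and TPI1 interconverts the resulting trioses. ALDOA was 1661 and 2923 FPKM in N-scr and H-scr, and 1275 and 1785 in N-si and H-si, with H-scr the highest library. ALDOC (ENSG00000109107, chr17:26900133-26904282, minus strand), the isozyme best known from brain, had the largest hypoxia response of the 33 genes in scrambled cells, at 17.3 FPKM in N-scr against 257 in H-scr, and 14.7 in N-si against 78.2 in H-si. The hypoxia response was 14.8-fold without and 5.31-fold with TET1-si, and H-si was 3.29-fold lower than H-scr while both normoxia libraries were close. An antisense RNA on the plus strand, RP11-192H23.5, was 8.39 and 135 FPKM in N-scr and H-scr, and 6.92 and 39.8 in N-si and H-si, and moved in the same way. The sources used here do not state that reads kept their strand, so reads of ALDOC and of this RNA cannot be told apart. The same limit holds for the other overlapping genes on an opposite strand given here. RP11-192H23.4, a coding gene that overlaps ALDOC on the same strand, was 51.7 FPKM in N-scr against 37.9 in H-scr, and 50.7 in N-si against 18.9 in H-si, lower in hypoxia. TPI1 was 731 and 952 FPKM in N-scr and H-scr, and 982 and 1034 in N-si and H-si, highest in H-si and lowest in N-scr.

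The payoff phase oxidises the triose and yields ATP. GAPDH, the oxidising step, was 3204 FPKM in N-scr against 3072 in H-scr, and 3302 in N-si against 3277 in H-si, the highest of the 34 genes in every library and within 1.07-fold between H-si and H-scr. PGK1, the first ATP-yielding enzyme, was 393 and 709 FPKM in N-scr and H-scr, and 349.9 and 403 in N-si and H-si, with H-scr far above the other 3. PGAM1 was 239 FPKM in N-scr against 285 in H-scr, and 212 in N-si against 201 in H-si. ENO1, the main enolase, was 1190.0 and 1219 FPKM in N-scr and H-scr, and 1112 and 758 in N-si and H-si, level in 3 libraries and lower in H-si. ENO2 (ENSG00000111674, chr12:7022909-7032861, plus strand), the neuronal enolase, was 10.7 FPKM in N-scr against 48.6 in H-scr, and 26.9 in N-si against 32.5 in H-si. The hypoxia response of ENO2 was 2.17 in scrambled and 0.27 in TET1-si cells, the widest gap between the responses of the 33 genes (-1.90), with a raised level in N-si and a lowered one in H-si. PKM, which makes pyruvate, was 1622 and 2023 FPKM in N-scr and H-scr, and 1262 and 1251 in N-si and H-si, both TET1-si libraries lying below both scrambled ones. LRRC23, which overlaps ENO2 on the same strand, was 1.37 FPKM in N-scr against 2.88 in H-scr, and 7.14 in N-si against 6.65 in H-si. Reads where both genes overlap may not be told apart.

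Lactate dehydrogenase is a tetramer of the products of LDHA and LDHB, and LDHA is the form that favours lactate. LDHA was 887 and 1370.1 FPKM in N-scr and H-scr, and 704 and 819.9 in N-si and H-si, higher in hypoxia in both states. LDHB was 965 FPKM in N-scr against 594 in H-scr, and 966 in N-si against 499 in H-si, the lowest hypoxia change of the 33 genes in both states, at -0.70 in scrambled and -0.95 in TET1-si cells. The summed FPKM of the pair was 1852 and 1964 FPKM in N-scr and H-scr, and 1670.0 and 1319 in N-si and H-si. LDHA made up 47.9% and 69.8% in N-scr and H-scr, and 42.2% and 62.2% in N-si and H-si, so its share was higher in hypoxia in both states. The pseudogene LDHAP4 reached 1.39% of LDHA at most, at 11.3 FPKM in N-scr against 17.9 in H-scr, and 9.08 in N-si against 11.4 in H-si.

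Lactate leaves through monocarboxylate transporters, SLC16A1 (MCT1) and the low-affinity exporter SLC16A3 (MCT4). SLC16A1 was 126 and 103 FPKM in N-scr and H-scr, and 81.7 and 68.7 in N-si and H-si, lower in hypoxia and lower after TET1-si. SLC16A3 (ENSG00000141526, chr17:80186273-80219005, plus strand) was 29.9 FPKM in N-scr against 139 in H-scr, and 144 in N-si against 276 in H-si, with N-scr the one low library. The hypoxia response was 4.64-fold without and 1.91-fold with TET1-si, and TET1-si was 4.81-fold higher in normoxia and 1.98-fold higher in hypoxia. CSNK1D, on the other strand and overlapping SLC16A3, was 131 and 162 FPKM in N-scr and H-scr, and 256 and 378 in N-si and H-si, higher in TET1-si cells too. It stood above SLC16A3 in every library, and reads where both genes overlap may not be told apart. Of the summed FPKM of both transporters, SLC16A3 made up 19.2% and 57.5% in N-scr and H-scr, and 63.8% and 80.0% in N-si and H-si.

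Pyruvate dehydrogenase kinases phosphorylate and switch off the complex that feeds pyruvate to the mitochondria. PDK1 (ENSG00000152256, chr2:173420101-173489823, plus strand) was 1.71 FPKM in N-scr against 8.77 in H-scr, and 6.16 in N-si against 16.0 in H-si, a hypoxia response of 5.13-fold without and 2.60-fold with TET1-si. Like SLC16A3, it was higher after TET1-si in both oxygen states, by 3.60-fold in normoxia and 1.83-fold in hypoxia. AC093818.1, a noncoding RNA overlapping PDK1 on the other strand, was 0.243 and 1.34 FPKM in N-scr and H-scr. In N-si and H-si this RNA was 0.317 and 2.36 FPKM. PDK2 was 11.8 and 24.9 FPKM in N-scr and H-scr, and 15.4 and 26.4 in N-si and H-si, higher in hypoxia in both states. PDK3 was 10.8 FPKM in N-scr against 15.9 in H-scr, and 16.7 in N-si against 15.8 in H-si, with N-scr below the other 3. PDK4 was close to absent, at 0.0226 and 0.191 FPKM in N-scr and H-scr, and 0 and 0.0132 in N-si and H-si. It rested on about 2, 16, 0 and 1 reads, its hypoxia response in scrambled cells had a counting interval of 0.81 to 6.07, and a count of 0 in N-si allows up to 0.0360 FPKM.

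Glycogen is built from glucose 6-phosphate by PGM1, UGP2, the synthase GYS1 and the branching enzyme GBE1, and PPP1R3C brings a phosphatase to glycogen that activates the synthase. PGM1 was 30.2 FPKM in N-scr against 56.1 in H-scr, and 37.6 in N-si against 54.8 in H-si. ITGB3BP, overlapping PGM1 on the other strand, was 69.7 and 48.9 FPKM in N-scr and H-scr, and 61.0 and 23.5 in N-si and H-si. GYS1 was 19.3 and 41.8 FPKM in N-scr and H-scr, and 16.9 and 33.3 in N-si and H-si, a hypoxia response of 2.17-fold without and 1.97-fold with TET1-si. GBE1 was 6.52 FPKM in N-scr against 11.6 in H-scr, and 9.86 in N-si against 11.8 in H-si, N-scr being the lowest. UGP2 was 54.6 and 55.9 FPKM in N-scr and H-scr, and 79.2 and 55.7 in N-si and H-si, alike in 3 libraries and higher in N-si. PPP1R3C (ENSG00000119938, chr10:93388199-93392811, minus strand) was 0.904 FPKM in N-scr against 2.005 in H-scr, and 0.651 in N-si against 0.576 in H-si. It passed the minimum through H-scr and rested on about 48, 115, 37 and 30 reads, so that its change of -1.64 after TET1-si in hypoxia came from few reads. Glycogen phosphorylases release glucose 1-phosphate. PYGL was 94.5 and 72.8 FPKM in N-scr and H-scr, and 79.6 and 79.7 in N-si and H-si, N-scr the highest. PYGB was 27.2 FPKM in N-scr against 27.8 in H-scr, and 27.6 in N-si against 28.7 in H-si, and its counting interval covered 0 in each of the 4 contrasts.

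**Figure D2:**
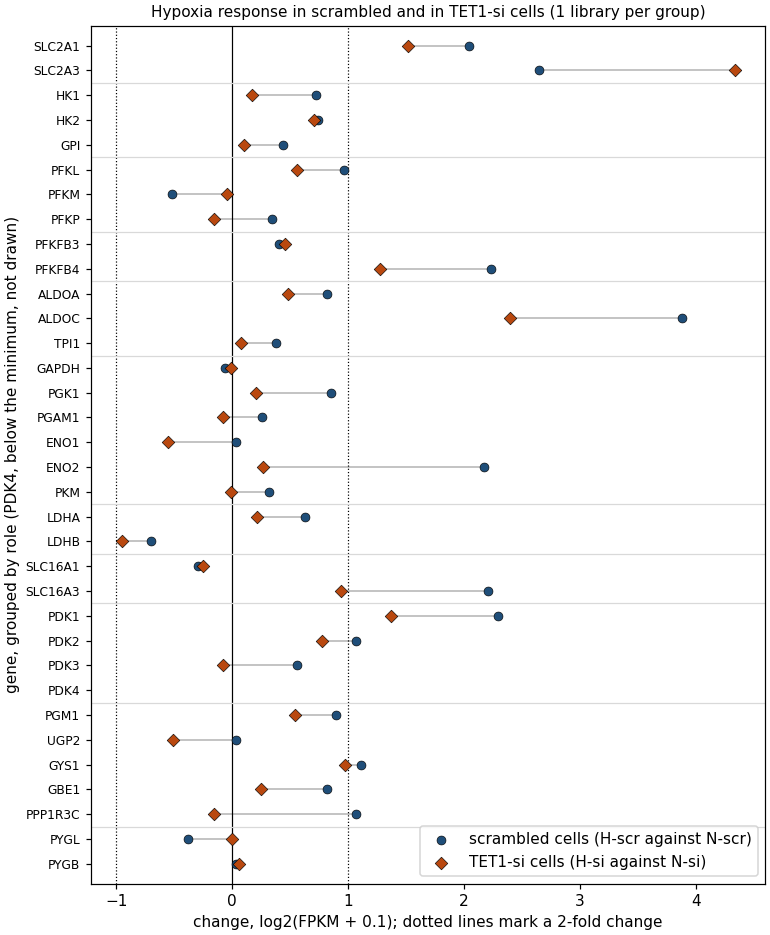
Hypoxia response of the 33 genes above the minimum, as a difference of log2(FPKM + 0.1) between 2 libraries, in scrambled cells (blue circles) and TET1-si cells (orange diamonds), joined by a line for each gene, with no replicates and no error bars. The diamond lies to the left of the circle for 26 of the 33 genes, most of all for ENO2, and far to the right for SLC2A3.

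The 2 hypoxia responses share no library and could be set side by side for each gene. The response with TET1-si minus that without it was below 0 for 26 of the 33 genes, where 55.4% of all genes were below 0. Its median was -0.35 over the 33 and -0.06 over all genes. It was at least 1 lower for 4 genes (7.86% of all genes), which were ENO2 (-1.90), ALDOC (-1.48), SLC16A3 (-1.27) and PPP1R3C (-1.22). It was at least 1 higher for SLC2A3 alone (4.87% of all genes). With a pseudocount of 1, PPP1R3C (-0.73) and SLC2A3 (0.29) both fell short of 1. Both had reached the minimum FPKM through libraries where they are high, H-scr for PPP1R3C and the hypoxia libraries for SLC2A3. In 21 of the 33 hypoxia was higher in both states, in 4 lower in both (PFKM, GAPDH, LDHB and SLC16A1), in 7 higher in scrambled and lower in TET1-si cells, and in 1 (PYGL) the reverse. Those 7 were PFKP, PGAM1, ENO1, PKM, PDK3, UGP2 and PPP1R3C. Rescaling to TPM raised the median of all genes by 0.12 and 0.14 in the 2 hypoxia responses, and turned GAPDH in both states and PFKM, PGAM1, PKM and PDK3 in TET1-si cells to slightly higher. Median-of-ratios scaling turned ENO1, UGP2 and PYGB in scrambled cells and TPI1, PYGL and PYGB in TET1-si cells to slightly lower. The counting interval covered 0 for UGP2 and PYGB without the knockdown, and with it for PFKM, GAPDH, PKM, PDK3, PDK4, PPP1R3C, PYGL and PYGB. With only 1 library a side, how far these gaps exceed the spread between cultures is unknown.

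A smaller gap can come from the normoxia side or from the hypoxia side, and the genes divided here. SLC2A1, PFKFB4, HK1, TPI1, PGM1, GBE1, PDK2, PDK3 and UGP2 had hypoxia levels that differed by at most 0.15 between knockdown states. Their normoxia levels were higher after TET1-si by 0.32 to 1.11. GPI, ALDOA, PGK1, ENO1, PKM and LDHA instead lay lower after TET1-si in hypoxia, within -0.81 to -0.69, and by -0.43 to -0.10 in normoxia. All 6 encode abundant enzymes, but of the other abundant ones TPI1 (0.12) and GAPDH (0.09) were not lower in hypoxia. PGAM1 (-0.50) and LDHB (-0.25) were lower there by less. The groups were formed after their values were seen. For TET1-si the median of all genes was itself 0.10 in hypoxia and 0.15 in normoxia. Median-of-ratios scaling moved it by -0.13 and -0.15, so the limits of these groups depend on the scaling.

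**Figure D3:**
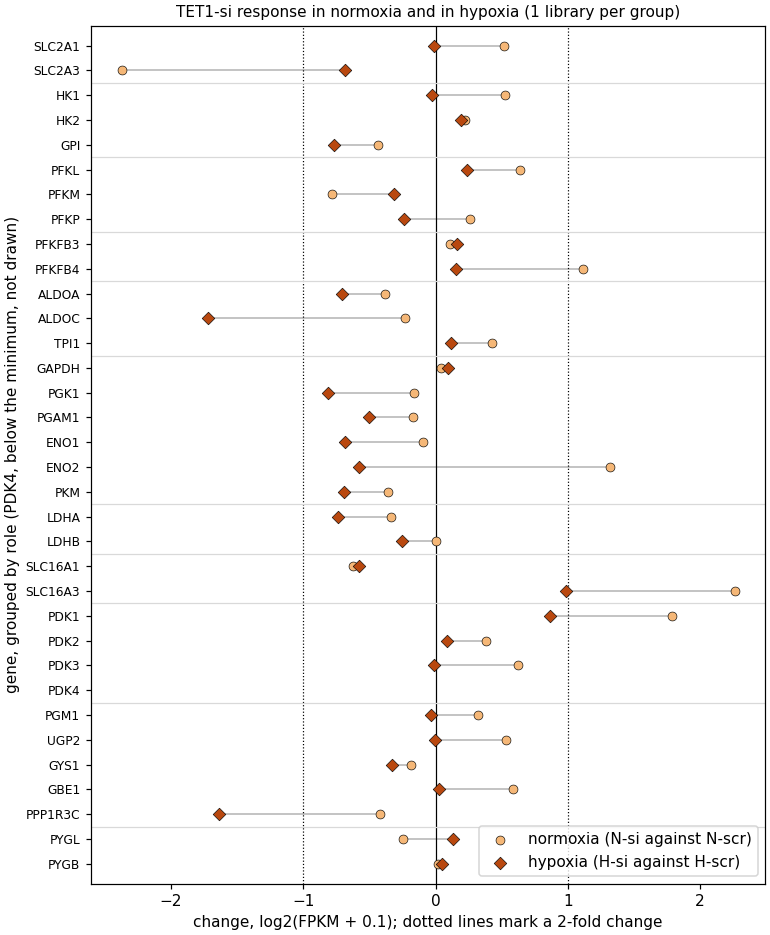
TET1-si response of the 33 genes above the minimum, as a difference of log2(FPKM + 0.1) between 2 libraries, in normoxia (light circles) and hypoxia (dark diamonds), joined for each gene, with no replicates and no error bars. ALDOC and PPP1R3C lie beyond 2-fold lower in hypoxia, SLC2A3 in normoxia, and SLC16A3 and PDK1 are far to the right in normoxia.

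After TET1-si in hypoxia 0 of the 33 genes were at least 2-fold higher and 2 (ALDOC and PPP1R3C) at least 2-fold lower, beside 12.0% higher and 8.35% lower among all genes. In normoxia 4 were at least 2-fold higher (PFKFB4, ENO2, SLC16A3 and PDK1) and 1 lower (SLC2A3), beside 12.1% and 5.56%. These shares are near or below those of all genes. With a pseudocount of 1, PPP1R3C in hypoxia (-0.93) and SLC2A3 (-0.88) and PFKFB4 (0.97) in normoxia fell short of 2-fold. PPP1R3C had reached the minimum through H-scr, the reference library of its hypoxia contrast. At any size 12 of 33 were higher in hypoxia and 19 of 33 in normoxia, against 56.5% and 60.3% of all genes. The median change was -0.03 in hypoxia and 0.04 in normoxia, against 0.10 and 0.15 for all genes, and these small medians turned with the scaling. The hypoxia median was 0.03 with TPM, and the normoxia median was -0.12 with median of ratios and -0.13 with upper quartile. No gene of the 33 (0) was at least 2-fold higher after TET1-si in both oxygen states, beside 6.51% of all genes. In 13 genes TET1-si was lower in both oxygen states, in 11 higher in both, in 8 higher in normoxia and lower in hypoxia, and in 1 (PYGL) the reverse. Small changes again turned with the scaling. TPM raised SLC2A1, HK1, PDK3, PGM1 and UGP2 above 0 in hypoxia, and median of ratios put TPI1, GAPDH, PDK2, GBE1, PYGL and PYGB below 0 there and PFKFB3, GAPDH, LDHB and PYGB below 0 in normoxia. The study's own criteria for a hypoxia gene dependent on TET1 ask that H-scr exceed 2 times H-si, that H-scr exceed N-scr, and that N-scr be no lower than N-si. They were met by 2 of the 33 genes above the minimum (ALDOC and PPP1R3C), beside 3.84% of all such genes. PPP1R3C reached the minimum through H-scr, the library these criteria ask to be high, so its place here follows in part from the filter. PDK4, below the minimum, met the criteria too, on the few reads given above.

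Shares of isozymes within a step do not depend on how libraries are scaled against each other, and are given here in the order N-scr, H-scr, N-si, H-si. PFKL made up 22.1%, 37.5%, 34.9% and 46.1% of phosphofructokinase, and PFKM, the muscle form, made up 47.4%, 28.9%, 28.0% and 24.2%. PFKM was thus the largest subunit in N-scr, and PFKL or PFKP was in the other 3 libraries. PFKFB4 was 16.2%, 41.1%, 28.1% and 40.9% of the sum of PFKFB3 and PFKFB4, so its share was higher in both hypoxia libraries. ALDOC was 1.03%, 8.09%, 1.14% and 4.20% of ALDOA plus ALDOC and ENO2 0.891%, 3.83%, 2.36% and 4.10% of ENO1 plus ENO2, so both stayed small beside ALDOA and ENO1. ENO3, the muscle enolase, is not among the 34 and was 52.1 and 57.8 FPKM in N-scr and H-scr, and 69.5 and 59.4 in N-si and H-si, above ENO2 in every library, and with it counted ENO2 was 0.854%, 3.66%, 2.23% and 3.82%. Among the kinases PDK1 was 7.03%, 17.6%, 16.1% and 27.5%, PDK2 was 48.6%, 50.03%, 40.3% and 45.4% and PDK3 was 44.3%, 32.0%, 43.6% and 27.1%. PDK2 kept the largest share of the kinases in N-scr, H-scr and H-si, while PDK3 held it in N-si. HK2 was 24.2%, 24.5%, 20.5% and 27.4% of HK1 plus HK2 and PYGB 22.4%, 27.7%, 25.8% and 26.5% of PYGL plus PYGB, and HK1 and PYGL led in every library.

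**Figure D4:**
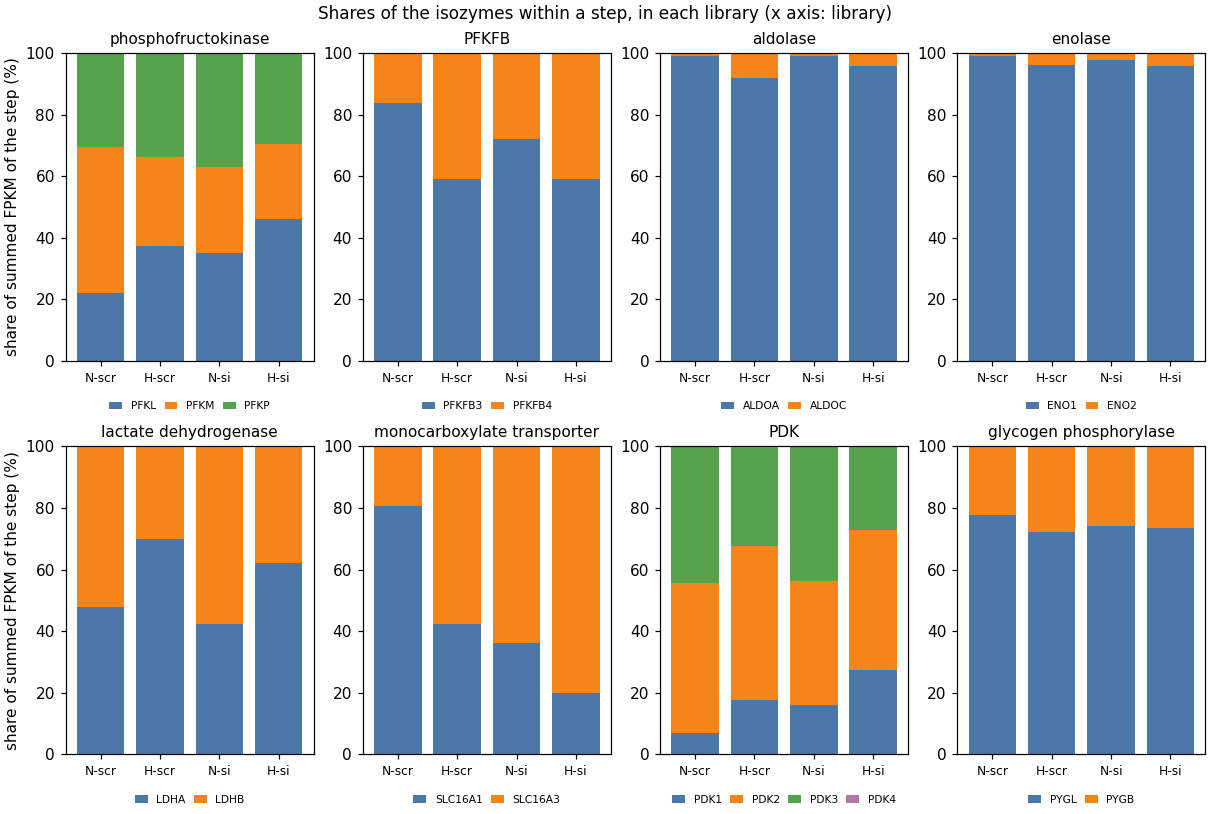
Share of each isozyme in the summed FPKM of the isozymes named under its panel, as stacked bars that add to 100%, in the 4 libraries (1 library per group, no error bars). The SLC16A3 share runs from 19.2% in N-scr to 80.0% in H-si, and LDHA takes a larger share in both hypoxia libraries. PDK4 is too low to be seen.

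The 17 enzymes from hexokinase to lactate dehydrogenase summed to 11521 FPKM (N-scr), 14225 (H-scr), 10753 (N-si) and 10748 (H-si). That was 1.40%, 1.88%, 1.35% and 1.49% of all FPKM in these libraries. H-scr stood apart from the other 3, which lay close together. The highest contributors were GAPDH, ALDOA, PKM, ENO1, LDHA, LDHB and TPI1, so that a sum says little of the low isozymes.

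The TET1-si response of each gene was set beside that of the genes around it on the chromosome. Coding genes above the minimum within 2 Mb of each gene were compared, a choice made after its values were seen. The background median over 11874 coding genes was 0.15 in normoxia and 0.08 in hypoxia. Around SLC16A3 on chromosome 17 the median of 54 neighbours was 0.81 in normoxia and 0.80 in hypoxia, with 53 and 50 of them higher. Around PDK1 on chromosome 2 it was 0.79 and 0.82 over 17 neighbours, and around PFKL on chromosome 21 0.61 and 0.62 over 38. These 3 genes were themselves higher after TET1-si, SLC16A3 by 2.26 in normoxia and 0.99 in hypoxia, PDK1 by 1.79 and 0.86 and PFKL by 0.64 and 0.24. SLC16A3 and PDK1 thus lay far above their neighbours in normoxia and nearer to them in hypoxia, and PFKL lay near them in normoxia and below them in hypoxia. GPI on chromosome 19 lay among lower genes, with medians of -0.66 and -0.79 over 53 neighbours, of which 40 and 45 were lower. LDHA on chromosome 11 did too, with -0.32 and -0.45 over 21. ALDOC on chromosome 17, by contrast, was -1.72 in hypoxia where its neighbours had a median of 0.05, and SLC2A3 on chromosome 12 was -2.37 in normoxia beside 0.42. ALDOA, PGK1, ENO1 and PKM were also lower in hypoxia among neighbours with medians of 0.24, 0.16, 0.13 and 0.01, that of PGK1 over only 7 neighbours. SLC16A1, PFKM, PGAM1 and PPP1R3C were lower in hypoxia among lowered neighbours, with medians of -0.25, -0.29, -0.24 and -0.34. The part of the surroundings in these responses was not tested.

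**Figure D5:**
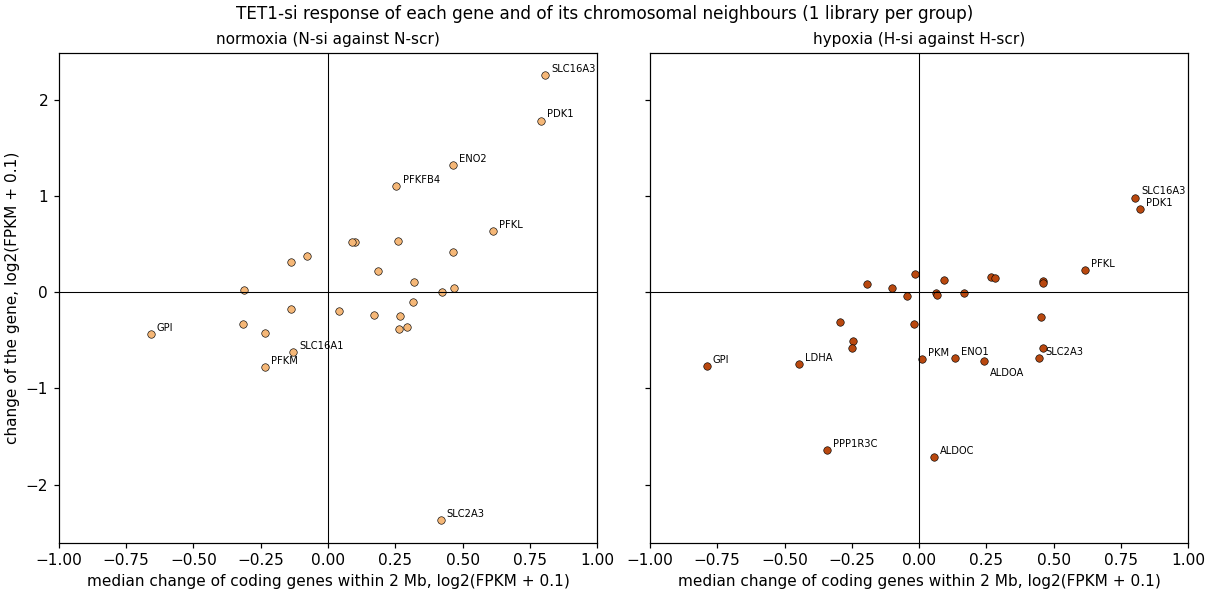
TET1-si response of 29 of the 33 genes (those with at least 10 coding neighbours above the minimum) against the median response of those neighbours, both as differences of log2(FPKM + 0.1), in normoxia (left) and hypoxia (right), 1 point per gene and 1 library per group. SLC16A3, PDK1 and PFKL lie at the right among raised neighbours, GPI at the left among lowered ones, and genes with a change or a neighbour median of at least 0.6 in size are named.

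Other genes of the pathway were counted by the same measure. Of 67 listed genes that are not among the 34, 46 were above the minimum. In hypoxia 8 of the 46 (17.4%) were at least 2-fold higher and 1 lower in scrambled cells, beside 12.9% and 4.53% of all genes, and 4 (8.70%) higher and 2 lower in TET1-si cells, beside 12.5% and 8.66%. After TET1-si 2 were higher and 4 lower in hypoxia (12.0% and 8.35% of all genes), and 3 higher and 1 lower in normoxia (12.1% and 5.56%). Of the 10 genes for pyruvate entry into mitochondria 0 were 2-fold changed by hypoxia, and their median was 0.08 without and -0.49 with the knockdown. Of the 19 other glycogen genes above the minimum, 4 (21.1%) were at least 2-fold higher in H-scr than in N-scr and 2 (10.5%) in H-si than in N-si, beside 12.9% and 12.5% of all genes. PPP1R3G, among these glycogen genes, and SLC2A12, among the 46, reached the minimum through the hypoxia libraries, where they are high. SLC16A7, counted as lower, reached it through N-scr. The places of these genes in the counts thus follow in part from the filter. GAA, the lysosomal enzyme that degrades glycogen, was 16.0 FPKM in N-scr against 36.9 in H-scr, and 26.7 in N-si against 75.1 in H-si, higher in hypoxia in both states. PPP1R3G, another glycogen-targeting subunit, was 0.4002 and 4.40 FPKM in N-scr and H-scr, and 0.187 and 3.002 in N-si and H-si, and the transporter SLC2A6 was 8.62 FPKM in N-scr against 46.9 in H-scr, and 6.08 in N-si against 10.1 in H-si, both named after their values were seen. The mitochondrial lists went the other way, with a median hypoxia change of -0.22 and -0.32 for 22 genes of the TCA cycle and of -0.32 and -0.47 for 37 of complex I, in scrambled and TET1-si cells. The difference between these lists and the 34 genes was not tested.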

How the data were processed

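The authors made TruSeq mRNA libraries from the 4 groups, sequenced them on an Illumina HiSeq with 100 bp reads (single end per the labels, paired end per the study's methods), and aligned them with TopHat/Cufflinks to hg19 with Ensembl annotation. Versions are not given in the sources used here. The deposited values are FPKM per gene, 1 column per library. Positions in the deposited table count from 0 at the start, and 1 was added.

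All 4 contrasts were differences of log2(FPKM + 0.1) between 2 libraries, over the 15057 genes whose mean FPKM reached 1, without 232 rows whose gene ID is repeated. No count test was run. Depth was recovered from genes with 1 exon, whose low FPKM are whole multiples of 1 read (95.6% to 97.0% of 622 to 716 low values a library were whole within 0.05). The depths were 23000000, 24600000, 24600000 and 22500000 fragments in N-scr, H-scr, N-si and H-si. Approximate reads used the canonical transcript of GENCODE v44lift37 less 216 bp, and counting intervals cover counting error only. Python 3.11.15, numpy 2.4.6, pandas 2.3.3, scipy 1.17.1 and matplotlib 3.10.9 were used, and the scripts were tested on simulated data.

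The members and lists were chosen with earlier results of these data known. All 34 genes were named. Of other pathway genes, those past 2-fold in one direction in both arms with a mean of at least 5 FPKM were named, and pseudogenes reaching 1% of their parent. Of 100 pseudogene rows of 11 parents, 68 were at 0 in all 4 libraries. Groups came from the labels, which give no separate cultures. Alternatives were other pseudocounts, other scalings (TPM, median of ratios, upper quartile), other expression filters and a 1.5-fold call. With 1 library per group, no test across replicates was made.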

Additional observations from a re-analysis of the deposited data

Results flagged for a closer look

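PFKP, a phosphofructokinase subunit, changed direction between conditions. Its hypoxia response was 0.34 on the log2(FPKM + 0.1) scale without the knockdown and -0.16 with it, and its TET1-si response was 0.26 in normoxia and -0.24 in hypoxia. ENO2, the neuronal enolase, had a TET1-si response of 1.32 in normoxia and -0.58 in hypoxia. These were singled out because the single library on each side moved one way in one condition and the other way in the other, with counting intervals that exclude 0 and a direction kept under the 3 other scalings. The difference between the conditions was not tested, since each group has 1 library, and the 4 contrasts share libraries. A search for samples far from their group was not possible with 1 library per group.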

How the results depend on the processing

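Of 33 genes, no change of at least 2-fold turned its sign under any setting tried. The counts below are of genes at least 2-fold higher or lower, and shares are of all genes. A pseudocount of 1 lowered the shares of all genes to 8.22% (higher in hypoxia, scrambled) and 7.73% (higher after TET1-si, normoxia), and left 1 gene lower after TET1-si in hypoxia and 0 in normoxia. TPM scaling moved the median hypoxia response to 0.84 in scrambled and 0.34 in TET1-si cells and gave 1 gene higher after TET1-si in hypoxia. Median-of-ratios scaling gave medians of 0.61 for hypoxia in scrambled cells, -0.18 for TET1-si in hypoxia and -0.12 in normoxia, and 1 gene lower in hypoxia in TET1-si cells (LDHB, -1.04). Upper-quartile scaling gave -0.14 and -0.13 for TET1-si in hypoxia and normoxia. These scalings moved the median of all genes by up to 0.16 in size, and the median of the 33 less that of all genes stayed between 0.66 and 0.68 for hypoxia in scrambled cells. Without an expression filter the shares were 7.30% higher and 2.67% lower (hypoxia, scrambled), 7.77% and 3.77% (hypoxia, TET1-si), 6.83% and 4.99% (TET1-si, hypoxia) and 5.98% higher (TET1-si, normoxia), and the median for TET1-si in hypoxia was -0.14. With a mean of at least 5 FPKM they were 8.39% and 7.63% higher in hypoxia in scrambled and TET1-si cells, with 1 gene lower after TET1-si in hypoxia and 0 in normoxia. A 1.5-fold call gave 18 higher and 1 lower (23.2% and 13.7% of all genes) for hypoxia without the knockdown, 9 and 1 (23.7% and 19.0%) with it, 2 and 9 (24.3% and 16.8%) for TET1-si in hypoxia, and 7 and 3 (24.7% and 12.0%) in normoxia. As shares of the protein-coding total, the 17 enzymes were 1.55%, 2.08%, 1.49% and 1.68% in N-scr, H-scr, N-si and H-si. Of the summary values 122 moved little under these settings, beside the 45 given. Of single genes, a pseudocount of 1 ended the 2-fold call of PPP1R3C for hypoxia in scrambled cells (0.66) and for TET1-si in hypoxia (-0.93), and of SLC2A3 (-0.88) and PFKFB4 (0.97) for TET1-si in normoxia, and took the differences of hypoxia responses of SLC2A3 (0.29) and PPP1R3C (-0.73) short of 1. PFKFB4 lost it under median of ratios (0.95) and upper quartile (0.94), and PDK2 and PPP1R3C under median of ratios (0.95 and 0.96). TPM added PFKL (1.08) and PGM1 (1.01) in scrambled cells, SLC16A3 (1.07) and GYS1 (1.11) in TET1-si cells, and SLC16A3 (1.06) for TET1-si in hypoxia. The filters and the call changed which genes were counted, and other causes were not tested. No paired analysis was possible because each group has 1 library and the labels give no replicate numbers.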
